A study of Mus musculus with 33 samples.

Results

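Protocadherins are the largest group of the cadherin superfamily of cell adhesion proteins, and the measurements here are of the genes whose symbol starts with Pcdh in frontal cortex RNA of juvenile mice. The tables held 71 such symbols, and the members kept were the 67 genes, of 23366 in all, whose CPM (counts scaled to the total of a library) summed over the libraries of a table to 5 or more in both tables. Of the members, 55 belong to the clustered families (12 of 15 Pcdha, 21 of 22 Pcdhb and 22 of 22 Pcdhg symbols), and all 12 non-clustered symbols were kept. Those left out were Pcdha4, Pcdha4-g, Pcdha8 and Pcdhb1.

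Animals were C57BL/6 offspring of about 1 month of age. Their dams inhaled filtered air or e-cigarette aerosol by whole-body exposure through gestation, and the pups inhaled it together with the nursing dams. The aerosols came from classic tobacco flavor cartridges with nicotine at 13 to 16 mg/mL or without nicotine. Females comprised 6 air, 5 nicotine and 5 no-nicotine libraries, and males comprised 6 air, 6 nicotine and 5 no-nicotine libraries, with 1 pup of a litter used per the study's methods. The samples are bulk tissue, so fewer cells of a type and less RNA per cell cannot be told apart in any level given here.

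Total counts ranged from 19150562 to 27513174 in the female libraries (median 23583390) and from 17845672 to 24787955 in the male libraries (median 20907489), and the members took 0.202 to 0.242% of them. Female and male libraries were sequenced in separate runs, so sex and run cannot be told apart and levels were compared only within a sex. The library labelled male nicotine replicate 21 held 4632 counts of Xist (219 CPM) and 1 count of Y-linked genes, which goes against its label, whereas the other 16 male libraries held at most 0.246 CPM of Xist. Without it, 0 members were called in male nicotine against air and in male nicotine against no nicotine.

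Non-clustered protocadherins are single genes, and the delta-1 (Pcdh1, Pcdh7, Pcdh9, Pcdh11x) and delta-2 (Pcdh8, Pcdh10, Pcdh17, Pcdh18, Pcdh19) genes encode proteins that act in axon growth, synapse formation and the sorting of cells in the brain. The clustered genes lie in a tandem array. In the alpha and gamma clusters, each variable exon has its own promoter and is spliced to constant exons that the whole cluster shares, whereas each Pcdhb gene is a single exon. Individual neurons use different combinations of the alternate variable exons, a choice that depends on CTCF and cohesin, while the C-type exons (Pcdhac1, Pcdhac2, Pcdhgc3, Pcdhgc4, Pcdhgc5) are used more widely. Neurons of the cortex carry these proteins on their surface, where homophilic binding is known to serve self-recognition of dendrites and axons and neuronal survival.

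Promoter sequences, 250 bases before and 50 after the start of each gene, were matched by symbol for 9 members in RefSeq (GRCm38.p6), and 58 had none. The sequences of 3 of them are printed because these genes changed in abundance with exposure and differ in promoter composition. CG dinucleotides, the sites of DNA methylation in mammals, are in capitals, and each sequence is 300 bases written 5′ to 3′ on the strand of the gene. The Pcdh7 promoter (chr5:57717831-57718130, plus strand) held 11 CG, the Pcdh17 promoter (chr14:84443313-84443612, plus strand) held 26 and the Pcdh20 promoter (chr14:88471347-88471646, minus strand) held 4.
Pcdh7: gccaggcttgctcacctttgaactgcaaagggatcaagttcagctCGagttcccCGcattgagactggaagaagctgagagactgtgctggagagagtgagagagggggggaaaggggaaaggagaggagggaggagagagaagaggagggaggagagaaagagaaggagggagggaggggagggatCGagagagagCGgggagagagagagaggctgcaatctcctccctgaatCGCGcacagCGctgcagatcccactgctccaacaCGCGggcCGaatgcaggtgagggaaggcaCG
Pcdh17: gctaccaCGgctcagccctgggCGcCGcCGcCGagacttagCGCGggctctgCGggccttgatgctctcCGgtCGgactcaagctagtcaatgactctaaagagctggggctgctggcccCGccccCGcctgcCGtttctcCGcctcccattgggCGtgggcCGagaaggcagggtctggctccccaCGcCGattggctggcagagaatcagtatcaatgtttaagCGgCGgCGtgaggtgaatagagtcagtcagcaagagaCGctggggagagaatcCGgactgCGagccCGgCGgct
Pcdh20: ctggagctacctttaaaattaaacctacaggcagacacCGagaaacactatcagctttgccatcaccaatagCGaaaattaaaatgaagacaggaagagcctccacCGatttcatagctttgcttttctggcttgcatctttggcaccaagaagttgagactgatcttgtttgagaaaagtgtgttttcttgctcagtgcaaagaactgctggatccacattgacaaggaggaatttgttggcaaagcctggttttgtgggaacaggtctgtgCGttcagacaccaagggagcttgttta

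The median over all 32851 promoters of the table was 7 CG, and as many CG as in Pcdh17, Pcdh7 and Pcdh20 were found in 16.9%, 41.4% and 68.6% of them. Among the other matched members, Pcdh10 held 24, Pcdh18 23, Pcdh9 18 and 19 in its 2 entries, Pcdh19 18, Pcdh8 14 and Pcdh15 8. The motif GGGCGG, read on both strands (CCGCCC on the other), was present once in Pcdh17, and 35.7% of all promoters held it on either strand. TATAAA on either strand was in none of the 3 printed promoters and in 13.6% of all promoters.

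Pcdh9 was the most abundant non-clustered member per length in air-exposed offspring, at 55.4 ± 4.17 CPM per kb of exon in females (SD, n = 6) and 52.3 ± 1.78 in males (SD, n = 6). It was followed by Pcdh10 and Pcdh7, at 33.6 ± 2.31 and 33.1 ± 2.63 CPM per kb in air-exposed females, whose mean ± SD ranges overlapped. Pcdh1 (19 ± 0.953), Pcdh8 (17.3 ± 3.53) and Pcdh17 (13.2 ± 1.25) came next, and their mean ± SD ranges overlapped between neighbours in this order. The order then ran through Pcdh20 (11.4 ± 1.66), Pcdh19 (9.14 ± 1.4), Pcdh11x (4.6 ± 0.531) and Pcdh18 (3.94 ± 0.471), with overlap between Pcdh17 and Pcdh20, Pcdh20 and Pcdh19, and Pcdh11x and Pcdh18. Pcdh12, a protein of vascular endothelium, and Pcdh15, a component of the tip link of sensory hair cells, were lowest at 0.758 ± 0.243 and 0.697 ± 0.0673 CPM per kb. In air-exposed males the order was the same apart from Pcdh15 and Pcdh12, which changed places with overlapping ranges.

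**Figure D1:**
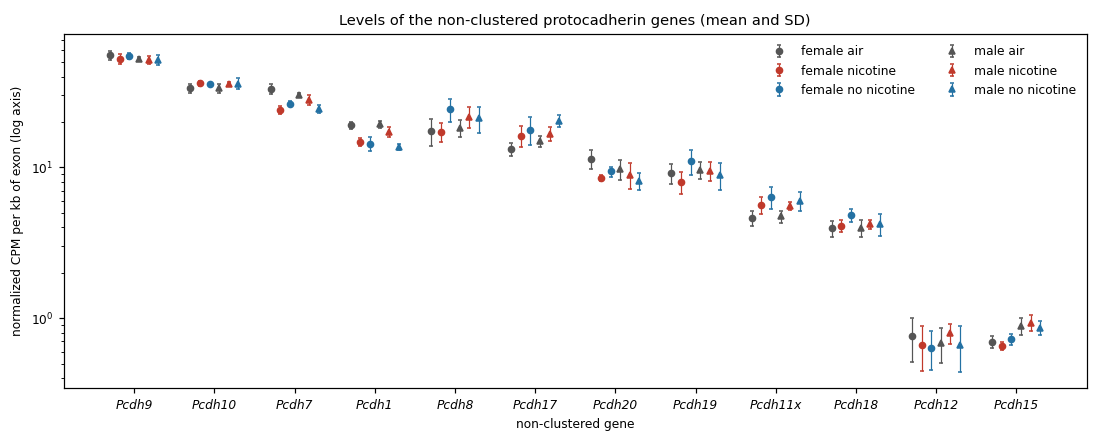
Mean ± SD of normalized CPM per kb of exon, on a log axis, for the 12 non-clustered protocadherins in the 6 groups (F female, M male, nic nicotine, 5 or 6 libraries each). Levels fall from Pcdh9, at 55.4 CPM per kb in air-exposed females, to Pcdh12 and Pcdh15, both below 1 CPM per kb.

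Among the clustered genes, Pcdhgc3 and Pcdhgc5 had the highest normalized CPM, at 213 ± 22.7 (SD, n = 6) and 198 ± 18.6 (SD, n = 6) in air-exposed females. In the Pcdha cluster Pcdhac2 was highest with 44.9 ± 3.34 (SD, n = 6), and the 10 alternate genes together with Pcdhac1 lay between the 1.42 CPM of Pcdha1 and the 8.47 CPM of Pcdha12. Pcdhb17 and Pcdhb20 were the most abundant Pcdhb genes per length, at 7.05 ± 0.69 and 5.47 ± 0.421 CPM per kb, and Pcdhb6 was lowest at 0.798 ± 0.111. Lengths were available for 33 members, since the annotation used (GENCODE vM1, mm9) gives no separate position to the other 34, all in the Pcdha and Pcdhg clusters. In the 20 Pcdhb genes other than Pcdhb20, which had no value, 7.05 to 46.6% of 50-base windows of a transcript lay within 2 mismatches of another protocadherin transcript, so their counts are uncertain where reads could be split between copies. For the 12 non-clustered genes this share was 0%.

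Changes were tested against filtered air within each sex with edgeR's quasi-likelihood test, and a gene is called changed at an adjusted p (Benjamini-Hochberg over all genes tested) below 0.01. In females exposed with nicotine, 6 of the 67 members fell and 0 rose, where 2.32% of the 15158 genes tested fell, 1.98% rose and 4.29% were called in all. Without nicotine, 9 members fell and 1 rose in females, beside 7.03% and 5.03% of all genes (12.1% called). In males exposed without nicotine, 10 members fell and 2 rose, beside 7.47% and 6.15% of the 15293 genes tested (13.6% called). In males exposed with nicotine 0 members were called by edgeR, DESeq2 or limma-voom, and 5 members (14.4% of all genes) had an unadjusted p below 0.05. Over all genes the background there was 0% called by edgeR and limma-voom and 1.04% by DESeq2. Without the library labelled male nicotine replicate 21 the count there was also 0, with Pcdh1 at -0.15 (adjusted p = 0.217), Pcdh7 at -0.12 (adjusted p = 0.295) and Pcdhgc5 at -0.18 (adjusted p = 0.285). The 4 comparisons with air are not independent, since both treatment groups of a sex share its air libraries.

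Members lay below air more often than above it. The fitted log2 fold change was below 0 in 48 of 67 members for female nicotine, 50 for female no nicotine, 40 for male nicotine and 51 for male no nicotine, where 49.0%, 47.9%, 47.2% and 46.1% of all genes tested lay below 0. The median over members was -0.11, -0.11, -0.026 and -0.12 in the same order, and the median over all genes was between 0.004 and 0.016. The genes that fell in every comparison except male nicotine were Pcdh1, Pcdh7, Pcdhac2, Pcdha12 and Pcdhgc5. Of the called members, 0 were called in opposite directions in different comparisons.

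**Figure D2:**
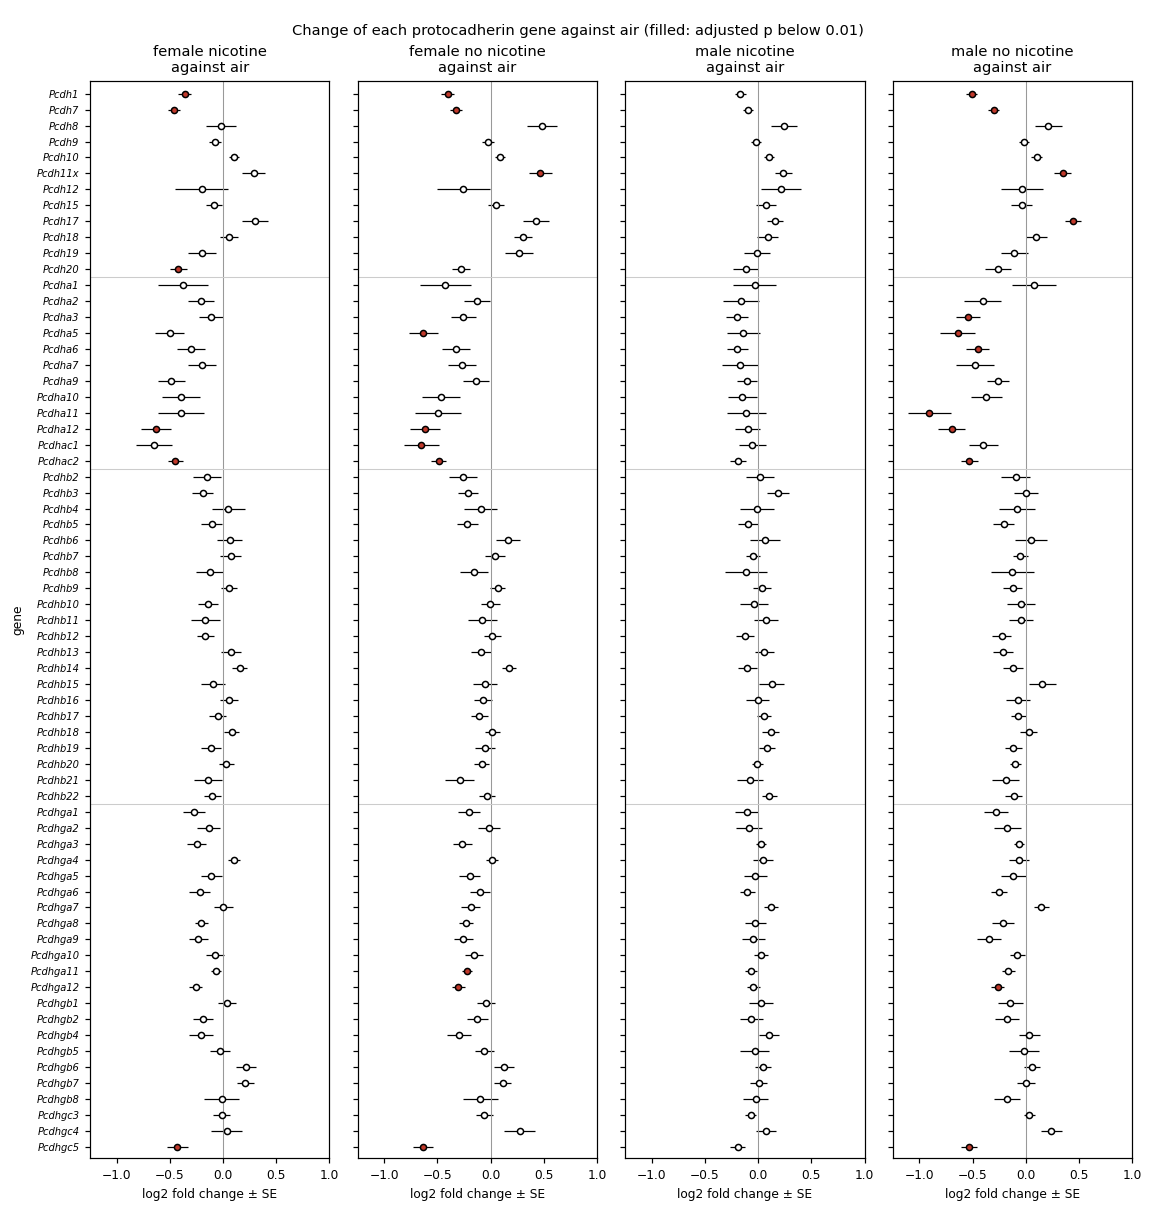
Log2 fold change ± SE against filtered air for each of the 67 members (grouped as non-clustered, Pcdha, Pcdhb and Pcdhg) in the 4 comparisons, with filled points at an adjusted p below 0.01. Filled points lie mostly left of 0, are absent from the Pcdhb genes and are absent from male nicotine.

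Marker genes of the cell types that a piece of frontal cortex can hold also differed between the groups. Their calls stand beside 4.29%, 12.1%, 0% and 13.6% of all genes in female nicotine, female no nicotine, male nicotine and male no nicotine. Cortical glutamatergic markers were lower, with 2 of 16 called lower and 1 higher in female nicotine, 12 and 1 in female no nicotine, 0 in male nicotine and 11 and 1 in male no nicotine. Their summed level was 8901 to 11259 CPM in air-exposed females, 6065 to 8800.0 with nicotine and 4601 to 8558 without, and 8271 to 9431, 6868 to 7688 and 4553 to 7349 in the male groups. Slc17a7, the vesicular glutamate transporter that defines these neurons, had log2 fold changes of -0.62, -0.86, -0.42 and -1.03 (female nicotine, female no nicotine, male nicotine, male no nicotine). The basal forebrain cholinergic, myelin and striatal lists had median log2 fold changes above 0 in each comparison with air. Basal forebrain cholinergic markers were called higher in 7, 8, 0 and 7 of 8 genes, and their summed level was 22.2 to 82.4, 86 to 199 and 112 to 293 CPM in the female groups (air, nicotine, no nicotine) and 37.6 to 85.1, 97.1 to 146 and 114 to 241 in the male groups. Myelin genes were called higher in 8, 7, 0 and 8 of 8, with summed levels of 8230.0 to 9913, 13523 to 17217 and 11085 to 16606 CPM in females and 9452 to 11563, 9702 to 15046 and 13769 to 23579 in males. Striatal projection neuron markers were called higher in 4, 2, 0 and 3 of 12, with summed levels of 1413 to 3347, 3009 to 4183 and 2614 to 3295 CPM in females and 1968 to 3398, 2208 to 4318 and 2335 to 6212 in males. Of the other lists, GABAergic interneurons held 2, 5, 0 and 3 of 12 genes called higher and 1, 2, 0 and 2 lower. Thalamus held 2, 3, 0 and 2 of 7 called higher and 0, 0, 0 and 1 lower. Oligodendrocyte precursors held 2, 3, 0 and 4 of 6 called higher and 0 lower. Choroid plexus held 2 of 6 called higher in male no nicotine, and olfactory bulb, astrocyte, microglia, endothelium and meninges lists held 0 calls. With the mean log2 level of the cortical glutamatergic list as a covariate, 0 of the 67 members were called in any comparison, and its values are given with the called genes that follow. The same fit called 0% of all genes in each female comparison and 0.0850% in male no nicotine. The score itself differs between the groups, so its part and that of the exposure cannot be told apart.

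**Figure D3:**
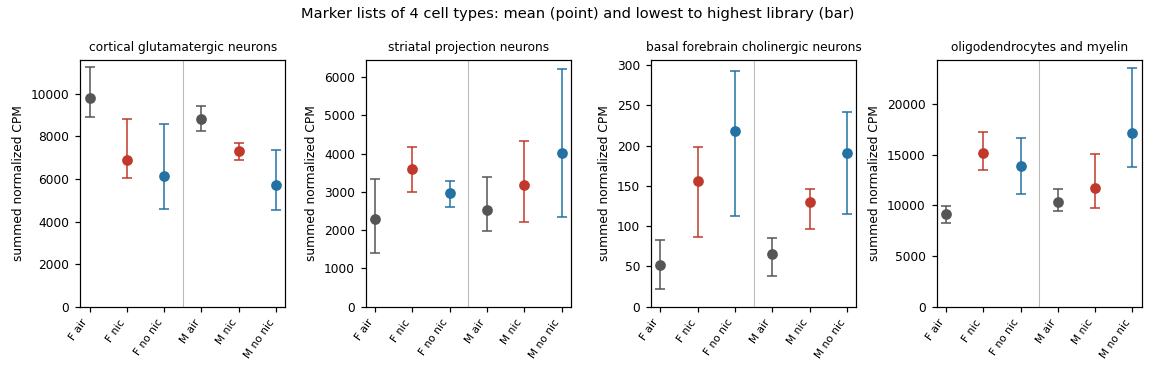
Summed normalized CPM of 4 marker lists (cortical glutamatergic, striatal projection, basal forebrain cholinergic, myelin) in the 6 groups (F female, M male, nic nicotine), as the mean with the lowest and highest library. The cortical list is lower and the other lists are higher in the exposed groups than in air of the same sex.

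Pcdh1, a delta-1 protocadherin (mm9 chromosome 18, 38345569 to 38371707, minus strand), fell in both sexes without nicotine and in females with it. Air-exposed females held 152 to 172 with a median of 161 normalized CPM. The 5 female nicotine libraries held 123, 126, 136, 127 and 114, and the 5 female no-nicotine libraries held 142, 107, 119.7, 121 and 118. Every exposed female library lay below every air library. The log2 fold change was -0.36 ± 0.062 (SE, adjusted p = 0.0021) with nicotine and -0.41 ± 0.062 (SE, adjusted p = 0.000841) without. Air-exposed males held 155 to 175 with a median of 161 CPM, male nicotine 135 to 167 with a median of 142, and the male no-nicotine libraries 119, 113, 116, 108 and 119. The no-nicotine males did not overlap with air, at -0.51 ± 0.052 (SE, adjusted p = 2.14e-05), whereas the nicotine males overlapped with it, at -0.17 ± 0.050 (SE, adjusted p = 0.122). Each of the 3 calls held in all fits that left out 1 library. With the cortical marker score as a covariate the values were -0.20 (adjusted p = 0.262), -0.18 (adjusted p = 0.825) and -0.43 (adjusted p = 0.0676) for female nicotine, female no nicotine and male no nicotine. An exon of Pcdh1 lies opposite the lincRNA 2010320O07Rik, and whether the counting used strand is not given in the sources used here, so reads of both cannot be told apart.

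Pcdh7 (mm9 chromosome 5, 58109260 to 58520590, plus strand), a delta-1 protocadherin known for roles in axon outgrowth and whose promoter is printed above with 11 CG, fell in the same 3 comparisons. Air-exposed females held 183 to 229.6 with a median of 206 normalized CPM, the nicotine females 138, 154, 159, 154 and 139, and the no-nicotine females 173, 161, 168, 158 and 161. Neither exposed group overlapped with air. The log2 fold change was -0.46 ± 0.055 (SE, adjusted p = 0.000287) with nicotine and -0.32 ± 0.055 (SE, adjusted p = 0.00105) without. Among males, air libraries held 180.3 to 196 with a median of 186, nicotine libraries 150.5 to 187 with a median of 177 and no-nicotine libraries 160.2, 161, 149.6, 140.1 and 147. Again the no-nicotine group lay wholly below air, at -0.30 ± 0.051 (SE, adjusted p = 0.000375), and the nicotine group overlapped with it, at -0.10 ± 0.048 (SE, adjusted p = 0.355). All fits that left out 1 library kept the 3 calls. The values with the cortical marker score as a covariate were -0.36 (adjusted p = 0.0695), -0.17 (adjusted p = 0.825) and -0.39 (adjusted p = 0.0809).

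Pcdh11x, the X-linked delta-1 gene (mm9 chromosome X, 117403868 to 118024228, plus strand), rose without nicotine in both sexes. Female libraries held 37.1 to 47.1 with a median of 41.2 normalized CPM in air, 53.1, 56.5, 40.9, 56 and 48.2 with nicotine and 44.6, 68.3, 64.4, 50.5 and 60.8 without. The groups overlapped, and the log2 fold change was 0.47 ± 0.11 (SE, adjusted p = 0.00581) without nicotine and 0.29 ± 0.11 (SE, adjusted p = 0.0976) with it. Male libraries held 36.5 to 47.4 with a median of 43.5 in air, 46.7 to 54.2 with a median of 49.6 with nicotine and 56.8, 65.7, 55.6, 44.2 and 49.4 without. These groups also overlapped, with 0.35 ± 0.083 (SE, adjusted p = 0.00526) without nicotine and 0.24 ± 0.080 (SE, adjusted p = 0.174) with it. In females the call was lost without air replicate 2, 4 or 6 or no-nicotine replicate 2, 3 or 5 (highest adjusted p = 0.0221). In males it was lost without air replicate 31 or 38 or no-nicotine replicate 2, 3 or 4 (highest adjusted p = 0.0186). With the cortical marker score as a covariate the 2 values were -0.033 (adjusted p = 0.978) and -0.005 (adjusted p = 0.989). Pcdh9, the other delta-1 gene, was not called, with log2 fold changes of -0.079, -0.024, -0.018 and -0.016 and group means between 192 and 206 CPM.

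Of the delta-2 genes, edgeR called Pcdh17 alone, in 1 comparison, while DESeq2 and limma-voom also called Pcdh8, Pcdh17 and Pcdh18 in female no nicotine. Pcdh17 (mm9 chromosome 14, 84843370 to 84936867, plus strand), whose product is known to shape presynaptic assembly in corticobasal ganglia circuits and whose promoter held 26 CG, rose in males exposed without nicotine. The male air libraries held 122 to 154 with a median of 144 normalized CPM, and the no-nicotine libraries held 200.3, 206, 212, 175 and 177, all above air. The log2 fold change was 0.45 ± 0.076 (SE, adjusted p = 0.000416), and the call held in 17 of 17 fits without 1 library. The other values were 0.30 ± 0.12 (SE, adjusted p = 0.111) for female nicotine, 0.43 ± 0.12 (SE, adjusted p = 0.0158) for female no nicotine and 0.16 ± 0.073 (SE, adjusted p = 0.331) for male nicotine, with groups that overlapped. Under the covariate the male no-nicotine value was 0.24 (adjusted p = 0.372).

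The remaining delta-2 genes did not pass by edgeR. Pcdh8 (arcadlin), which is induced by neuronal activity and acts in the removal of N-cadherin from synapses, had 0.48 ± 0.14 (SE, adjusted p = 0.0173) in female no nicotine, from 69.2 ± 14.1 (SD, n = 6) CPM in air to 96.8 ± 17 (SD, n = 5). In female nicotine, male nicotine and male no nicotine its log2 fold changes were -0.017, 0.24 and 0.21. Pcdh10, the delta-2 gene with the highest level, had female group means between 358 ± 24.6 (SD, n = 6) CPM in air and 384 ± 15.6 (SD, n = 5) with nicotine. Its male group means lay between 356 CPM in air and 383 CPM without nicotine. The log2 fold changes of Pcdh10 were between 0.087 and 0.11 in the 4 comparisons (adjusted p from 0.157 to 0.372). Pcdh18 had 0.30 ± 0.084 (SE, adjusted p = 0.0158) in female no nicotine and 0.058, 0.088 and 0.10 in female nicotine, male nicotine and male no nicotine. Pcdh19, an X-linked gene whose loss causes an epilepsy of females, had -0.20 ± 0.13 (SE, adjusted p = 0.357) in female nicotine and 0.27 ± 0.13 (SE, adjusted p = 0.156) in female no nicotine, and -0.010 and -0.11 in the male comparisons. An exon of Pcdh19 lies opposite the lincRNA Gm16795, with the same limit on strand as for Pcdh1.

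Pcdh20 (mm9 chromosome 14, 88864554 to 88871203, minus strand), with 4 CG in the promoter printed above, fell in females exposed with nicotine. Air-exposed females held 51.8 to 75.2 with a median of 57.4 normalized CPM, and the 5 nicotine libraries held 41.4, 47, 46.4, 44.5 and 44.2, all below air. The log2 fold change was -0.42 ± 0.082 (SE, adjusted p = 0.00407), and the call was lost without air replicate 6 or nicotine replicate 1 or 6 (highest adjusted p = 0.0138). In female no nicotine it was called by DESeq2 and limma-voom and not by edgeR. Its values in female no nicotine, male nicotine and male no nicotine were -0.28 ± 0.081 (SE, adjusted p = 0.0192), -0.12 ± 0.12 (SE, adjusted p = 0.709) and -0.26 ± 0.13 (SE, adjusted p = 0.143). With the cortical covariate the female nicotine value was -0.30 (adjusted p = 0.304). Pcdh12 and Pcdh15, the genes of lowest level, were not called, with log2 fold changes from -0.26 to 0.22 and from -0.084 to 0.072.

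**Figure D4:**
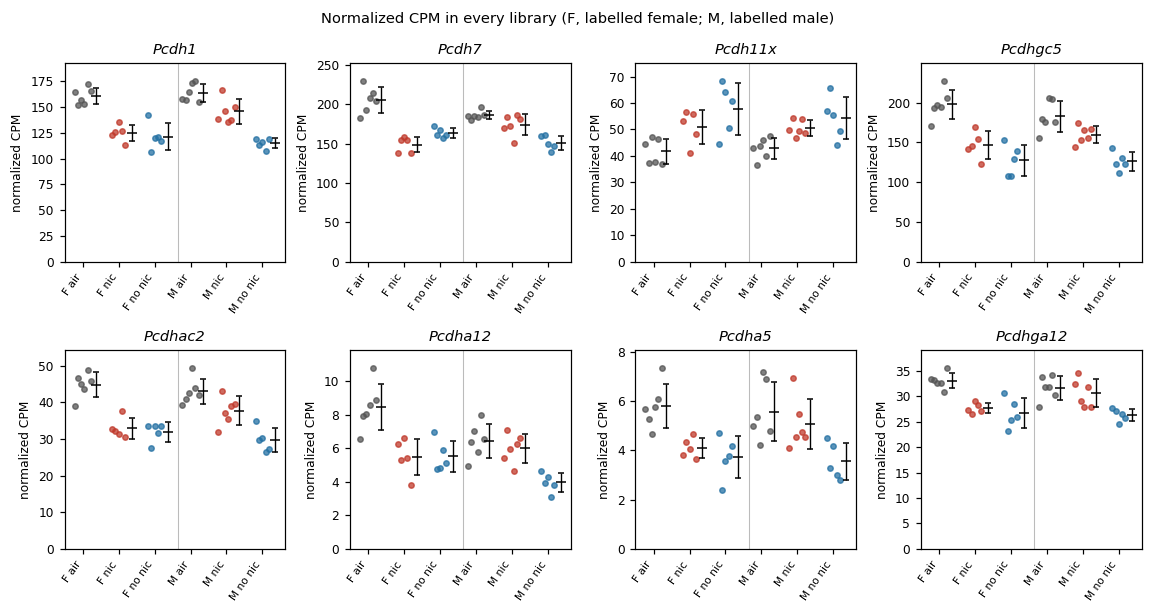
Normalized CPM in each of the 33 libraries, with the group mean and SD, for 8 protocadherins (Pcdh1, Pcdh7, Pcdh11x, Pcdhac2, Pcdha12, Pcdha5, Pcdhga12, Pcdhgc5) that were called in 2 or more comparisons with air. Pcdh11x is higher in the no-nicotine groups and the other 7 genes are lower, with the male nicotine group between male air and male no nicotine.

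The Pcdha genes, on mouse chromosome 18, lay below air nearly throughout. All 12 did so in female nicotine, female no nicotine and male nicotine, and 11 of 12 in male no nicotine. The calls were 2, 4, 0 and 6 lower and 0 higher, beside 4.29%, 12.1%, 0% and 13.6% of all genes called in either direction. At an unadjusted p below 0.05 there were 7, 8, 1 and 11 (28.1%, 36.4%, 14.4% and 36.02% of all genes). The median log2 fold changes were -0.40, -0.45, -0.14 and -0.46. Reads of the shared constant exons cannot be assigned to a single variable exon, and how they were counted is not given in the sources used here, so the members of the cluster are not independent of each other.

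Pcdhac2, the most abundant Pcdha isoform and one known to be required for the tiling of serotonergic axons, fell in 3 comparisons. The female air libraries held 39 to 48.8 with a median of 45.4 normalized CPM, the nicotine libraries 32.8, 32.2, 31.5, 37.5 and 30.4 and the no-nicotine libraries 33.6, 27.5, 33.5, 31.6 and 33.6. Both exposed groups lay wholly below air, at -0.45 ± 0.068 (SE, adjusted p = 0.000901) with nicotine and -0.49 ± 0.067 (SE, adjusted p = 0.000802) without. Males held 39.2 to 49.4 with a median of 42.4 in air, 31.9 to 43.2 with a median of 38.2 with nicotine and 35, 29.9, 30.2, 26.4 and 27.4 without. The no-nicotine males did not overlap with air, at -0.53 ± 0.079 (SE, adjusted p = 0.000141), and the nicotine males did, at -0.19 ± 0.075 (SE, adjusted p = 0.251). The calls held in all fits without 1 library. With the cortical covariate the 3 values were -0.36 (adjusted p = 0.156), -0.37 (adjusted p = 0.825) and -0.60 (adjusted p = 0.0951). Pcdhac1, the other C-type gene of the cluster, was called in female no nicotine at -0.65 ± 0.17 (SE, adjusted p = 0.00949), and the call was lost without air replicate 2, 4, 5 or 6, nicotine replicate 1, 3 or 6 or no-nicotine replicate 2, 3, 4 or 5 (highest adjusted p = 0.031). Its values were -0.65 ± 0.17 (SE, adjusted p = 0.0187) in female nicotine, -0.055 ± 0.13 (SE, adjusted p = 0.893) in male nicotine and -0.40 ± 0.13 (SE, adjusted p = 0.0361) in male no nicotine, and -0.27 (adjusted p = 0.874) in female no nicotine under the covariate.

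Pcdha12 and Pcdha5, alternate isoforms of the cluster, were called lower in both sexes at group means below 10 CPM. Pcdha12 held 6.54 to 10.8 with a median of 8.32 normalized CPM in female air, 6.24, 5.3, 6.61, 5.44 and 3.8 in female nicotine and 6.97, 4.76, 4.84, 5.91 and 5.12 in female no nicotine. These groups overlapped, and the log2 fold changes were -0.63 ± 0.14 (SE, adjusted p = 0.00922) with nicotine and -0.62 ± 0.14 (SE, adjusted p = 0.00513) without. In males it held 4.96 to 7.98 with a median of 6.44 in air, 4.67 to 7.07 with a median of 6.12 with nicotine and 4.65, 3.91, 4.31, 3.09 and 3.84 without. The last group lay wholly below air, at -0.70 ± 0.13 (SE, adjusted p = 0.000785), beside -0.10 ± 0.12 (SE, adjusted p = 0.769) with nicotine. The male call held in all fits without 1 library. The female no-nicotine call was lost without air replicate 4, 5 or 6 or no-nicotine replicate 2, 3 or 5 (highest adjusted p = 0.0184), and the female nicotine call was lost without air replicate 2, 3, 4, 5 or 6, nicotine replicate 1, 2, 5 or 6 or no-nicotine replicate 3, 4 or 5 (highest adjusted p = 0.0272). For Pcdha12 the values under the cortical covariate were -0.19 (adjusted p = 0.619), 0.019 (adjusted p = 0.99) and -0.72 (adjusted p = 0.173).

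For Pcdha5, female air libraries held 4.65 to 7.33 with a median of 5.71 normalized CPM, nicotine libraries 3.79, 4.32, 4.04, 4.65 and 3.64 and no-nicotine libraries 4.69, 2.4, 3.55, 3.76 and 4.17. The no-nicotine value was -0.63 ± 0.14 (SE, adjusted p = 0.00408), and the nicotine value was -0.50 ± 0.14 (SE, adjusted p = 0.0255). Male libraries held 4.21 to 7.17 with a median of 5.17 in air, 4.11 to 6.95 with a median of 4.65 with nicotine and 4.51, 3.3, 4.19, 2.99 and 2.79 without. Groups overlapped in both sexes, and the male values were -0.64 ± 0.17 (SE, adjusted p = 0.00874) without nicotine and -0.14 ± 0.15 (SE, adjusted p = 0.74) with it. The female call was lost without air replicate 6 or no-nicotine replicate 3 (highest adjusted p = 0.0134), and the male call was lost without air replicate 30, 31, 37 or 38, nicotine replicate 17, 21 or 22 or no-nicotine replicate 3, 5 or 7 (highest adjusted p = 0.0253). Under the covariate the values of Pcdha5 were -0.30 (adjusted p = 0.84) in female no nicotine and -0.73 (adjusted p = 0.29) in male no nicotine. Pcdha3 was also called in male no nicotine, at -0.54 ± 0.11 (SE, adjusted p = 0.00151). Pcdha11 (-0.91, SE 0.20, adjusted p = 0.00295) and Pcdha6 (-0.45, SE 0.11, adjusted p = 0.00461), named here after their values were seen, complete the 6 calls of that comparison together with Pcdhac2. The Pcdha6 call was lost without air replicate 33, 37 or 38 or no-nicotine replicate 3, 4 or 7 (highest adjusted p = 0.0138). Under the covariate Pcdha3, Pcdha11 and Pcdha6 had -0.49 (adjusted p = 0.264), -1.31 (adjusted p = 0.127) and -0.50 (adjusted p = 0.238).

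The Pcdhb genes, single-exon genes with no shared constant exon, held 0 calls in each comparison with air by edgeR, DESeq2 and limma-voom. Over all genes edgeR called 4.29%, 12.1%, 0% and 13.6%. At an unadjusted p below 0.05 there were 1, 4, 0 and 3 of 21 genes, beside 28.1%, 36.4%, 14.4% and 36.02% of all genes, and the lowest adjusted p values were 0.161, 0.0804, 0.439 and 0.0651. Median log2 fold changes were -0.094, -0.070, 0.018 and -0.093, with 12, 15, 10 and 17 of 21 genes below 0. Pcdhb17, the most abundant, held 23.1 ± 2.25 (SD, n = 6), 22.3 ± 2.19 (SD, n = 5) and 21.4 ± 1.9 (SD, n = 5) CPM in female air, nicotine and no nicotine, and 20.4 ± 2.33 (SD, n = 6), 21.1 ± 0.816 (SD, n = 6) and 19.4 ± 1.57 (SD, n = 5) in the male groups. Its log2 fold changes were -0.052, -0.11, 0.054 and -0.071. Pcdhb20 had 0.031, -0.086, -0.010 and -0.10. The 95% interval of the Pcdhb17 change ran from -0.22 to 0.12 in female nicotine and from -0.22 to 0.081 in male no nicotine.

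In the Pcdhg cluster the calls were 1, 3, 0 and 2 lower and 0 higher of 22 genes, beside 4.29%, 12.1%, 0% and 13.6% of all genes called in either direction. At an unadjusted p below 0.05 there were 9, 7, 1 and 8 of 22, beside 28.1%, 36.4%, 14.4% and 36.02% of all genes. Pcdhgc5, a C-type isoform expressed in the postnatal brain, was called in 3 comparisons. Air-exposed females held 170.1 to 227 with a median of 196 normalized CPM, nicotine females 141, 146, 169.8, 154 and 122 and no-nicotine females 153, 107, 107, 129.6 and 139. Neither exposed group overlapped with air, at -0.43 ± 0.10 (SE, adjusted p = 0.00919) with nicotine and -0.64 ± 0.10 (SE, adjusted p = 0.000841) without. Air-exposed males held 156 to 206 with a median of 177, nicotine males 144 to 174 with a median of 160.2 and no-nicotine males 143, 123, 112, 131 and 122. The no-nicotine males lay wholly below air, at -0.53 ± 0.073 (SE, adjusted p = 6.63e-05), while the nicotine males overlapped with it, at -0.19 ± 0.069 (SE, adjusted p = 0.201). The female nicotine call was lost without air replicate 2, 3, 4, 5 or 6, nicotine replicate 1, 2, 5 or 6 or no-nicotine replicate 4 or 5 (highest adjusted p = 0.0296), and the other calls held in all fits without 1 library. With the cortical covariate the values were -0.13 (adjusted p = 0.60), -0.21 (adjusted p = 0.825) and -0.48 (adjusted p = 0.118).

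The C-type neighbours of Pcdhgc5 were not called. Pcdhgc3 held 213 ± 22.7 (SD, n = 6), 211 ± 21.3 (SD, n = 5) and 205 ± 18.7 (SD, n = 5) CPM in the female groups (air, nicotine, no nicotine) and 212 ± 9.67 (SD, n = 6), 202 ± 15.6 (SD, n = 6) and 217 ± 12.9 (SD, n = 5) in the male groups. Its log2 fold changes were -0.013, -0.060, -0.072 and 0.034, with 95% intervals from -0.23 to 0.11 in female no nicotine and from -0.079 to 0.15 in male no nicotine. Pcdhgc4, an isoform needed for the survival of cortical interneurons, lay above air at 0.27 ± 0.14 (SE, adjusted p = 0.186) in female no nicotine and 0.24 ± 0.10 (SE, adjusted p = 0.088) in male no nicotine, and at 0.035 and 0.072 with nicotine.

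Of the alternate Pcdhg genes, Pcdhga12 was called in both no-nicotine comparisons. It held 30.9 to 35.6 with a median of 33 normalized CPM in female air, 27.4, 26.6, 29, 28.3 and 27.1 with nicotine and 30.7, 23.3, 25.3, 28.5 and 26.1 without, and neither exposed group overlapped with air. The log2 fold change was -0.30 ± 0.060 (SE, adjusted p = 0.00204) without nicotine and -0.26 ± 0.060 (SE, adjusted p = 0.0104) with it. In males it held 27.9 to 34.2 with a median of 31.9 in air, 27.9 to 34.6 with a median of 30.4 with nicotine and 27.8, 27.2, 24.6, 26.5 and 25.8 without. The male no-nicotine group lay below air, at -0.27 ± 0.063 (SE, adjusted p = 0.00471), and the nicotine group overlapped with it, at -0.047 ± 0.060 (SE, adjusted p = 0.783). The female call held in all fits without 1 library, and the male call was lost without air replicate 31 or 38 or no-nicotine replicate 4 or 7 (highest adjusted p = 0.0157). Under the covariate Pcdhga12 had -0.10 (adjusted p = 0.845) and -0.35 (adjusted p = 0.159). Pcdhga11 was called in female no nicotine at -0.22 ± 0.048 (SE, adjusted p = 0.00395), and the call was lost without air replicate 6 or no-nicotine replicate 2, 3 or 5 (highest adjusted p = 0.0139). Under the covariate it had -0.092 (adjusted p = 0.841), and in male no nicotine it had -0.16 ± 0.059 (SE, adjusted p = 0.0505).

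Summed over a cluster, Pcdha CPM was 92.2 ± 7.96, 68.2 ± 6.34 and 67.1 ± 5.07 in female air, nicotine and no nicotine (mean ± SD, n = 6, 5 and 5) and 87.3 ± 6.89, 78.1 ± 6.93 and 61.2 ± 7.45 in the male groups (n = 6, 6 and 5). Pcdhg sums were 699 ± 6.61, 629 ± 35.6 and 598 ± 28.8 in females and 684 ± 29.1, 649 ± 24.5 and 615 ± 12.4 in males. Pcdhb sums were 194 ± 12.3, 191 ± 9.69 and 188 ± 7.39 in females and 178 ± 13.6, 180.1 ± 5.86 and 167 ± 14.2 in males, with differences from air within 1 SD of the air group. The share of Pcdha counts taken by Pcdhac2 was 48.7% ± 2.22 in female air and between 47.6 and 49.4% in the group means. Within Pcdhg, Pcdhgc5 took 28.3% ± 2.63 in female air, 23.3% ± 1.79 with nicotine and 21.2% ± 2.76 without, and 26.6% ± 1.81, 24.6% ± 1.53 and 20.5% ± 1.52 in the male groups. The share of Pcdhgc3 was 30.5% ± 3.33, 33.6% ± 2.24 and 34.2% ± 2.0 in females and 31.1% ± 2.22, 31.1% ± 1.89 and 35.4% ± 2.4 in males. Clustered genes together took 42% ± 0.53, 40.7% ± 1.6 and 37.9% ± 1.97 of the members' counts in females and 41.2% ± 1.33, 39.6% ± 0.826 and 38.5% ± 1.71 in males. These sums and shares are descriptions and were given no test.

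**Figure D5:**
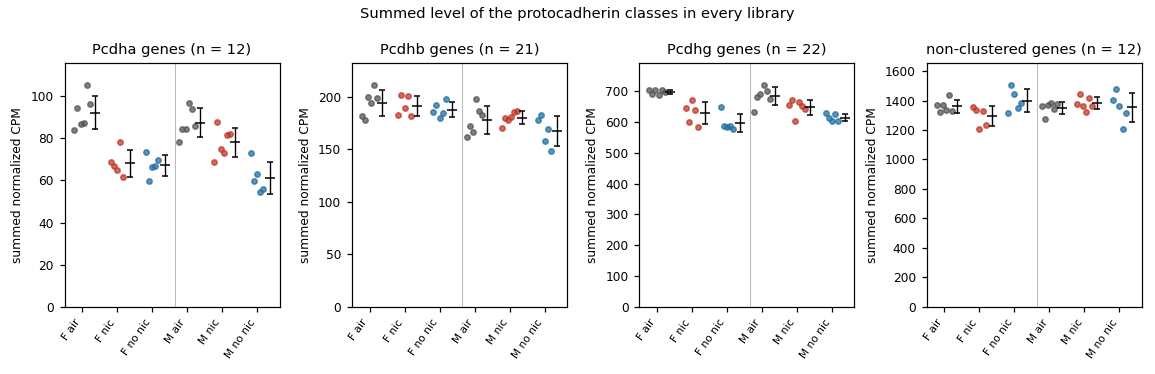
Summed normalized CPM of the 12 Pcdha, 21 Pcdhb, 22 Pcdhg and 12 non-clustered genes in each of the 33 libraries, with the group mean and SD. The Pcdha sum falls from 92.2 ± 7.96 to 67.1 ± 5.07 in females and from 87.3 ± 6.89 to 61.2 ± 7.45 in males between air and no nicotine, and the Pcdhb sum differs by less than 1 SD.

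The groups exposed with and without nicotine were also compared directly. Per the paper, they were exposed in separate chambers whose mean particulate levels differed, so this comparison does not isolate nicotine. Marker lists differed in males too, with median log2 fold changes (nicotine minus no nicotine) of 0.42 for cortical glutamatergic and -0.50 for myelin genes. In males, Pcdh1 was higher with nicotine than without, at 0.34 ± 0.052 (SE, adjusted p = 0.00639), and was the 1 member called, where 0.222% of all genes were higher and 0.0262% lower (0.248% called). Without nicotine replicate 21, whose label is in doubt, the value was 0.36 (adjusted p = 0.0117). Over the fits without 1 library the call was lost without air replicate 31, nicotine replicate 16, 17, 21 or 22 or no-nicotine replicate 3, 4 or 5 (highest adjusted p = 0.0231). The next members were Pcdhgc5 (0.34, SE 0.073, adjusted p = 0.0192), Pcdha12 (0.60, SE 0.13, adjusted p = 0.0206), Pcdhac2 (0.34, SE 0.080, adjusted p = 0.0254), Pcdh7 (0.20, SE 0.051, adjusted p = 0.0356), Pcdha11 (0.80, SE 0.20, adjusted p = 0.0368) and Pcdh17 (-0.29, SE 0.076, adjusted p = 0.0431). DESeq2 called Pcdh1, Pcdhgc5, Pcdha12, Pcdhac2, Pcdh7 and Pcdha11, where it called 2.98% of all genes. Over the 67 members 16 had an unadjusted p below 0.05 (20.1% of all genes), 55 lay above 0 and the median was 0.11, beside -0.005 over all genes. In females 0 members were called by edgeR, DESeq2 or limma-voom, with 7 members at an unadjusted p below 0.05 (8.36% of all genes) and 0% of all genes called. Among the female members that shared the lowest adjusted p were Pcdh8 (-0.50, SE 0.15, adjusted p = 0.574) and Pcdh19 (-0.46, SE 0.14, adjusted p = 0.574), both lower with nicotine. Clustered members of Pcdha and Pcdhg reached the same adjusted p. For Pcdh1 and Pcdh7 the female values were 0.043 ± 0.065 (SE, adjusted p = 0.882) and -0.14 ± 0.058 (SE, adjusted p = 0.577).

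Whether the response differed between the sexes was tested as the female change minus the male change in 1 fit of all 33 libraries. Of the members, 0 passed for nicotine and 0 for no nicotine by edgeR and DESeq2 (10 and 4 at an unadjusted p below 0.05, beside 6.47% and 4.91% of all genes), and 0% of the 15105 genes tested were called in either. Without the library labelled male nicotine replicate 21 both counts of members were also 0. For nicotine the differences were -0.36 ± 0.073 (SE, adjusted p = 0.219) for Pcdh7, -0.19 ± 0.080 (SE, adjusted p = 0.737) for Pcdh1, -0.25 ± 0.10 (SE, adjusted p = 0.723) for Pcdhac2, -0.23 ± 0.12 (SE, adjusted p = 0.807) for Pcdhgc5 and -0.53 ± 0.19 (SE, adjusted p = 0.627) for Pcdha12. The median over members was -0.094 for nicotine and 0.036 for no nicotine. Without nicotine the differences were -0.018 ± 0.074 (SE, adjusted p = 0.997) for Pcdh7 and 0.11 ± 0.082 (SE, adjusted p = 0.95) for Pcdh1. The calls made in female nicotine and not in male nicotine are therefore not shown to differ between the sexes.

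Other genes of the adhesion system were examined from lists of cadherins, regulators and partners. Over all genes, 4.29%, 12.1%, 0% and 13.6% were called against air in female nicotine, female no nicotine, male nicotine and male no nicotine. Of the calsyntenins, synaptic cadherin-family proteins, Clstn1 and Clstn2 fell, with Clstn1 at -0.39, -0.45 and -0.38 and Clstn2 at -0.34, -0.42 and -0.44 in female nicotine, female no nicotine and male no nicotine. Clstn3 was not called, at -0.12, -0.015, 0.024 and -0.011 in the 4 comparisons. The list of Fat, Dchs, Celsr and calsyntenin genes held 2, 3, 0 and 3 of 11 called lower and 0 higher, with Celsr2, a planar polarity cadherin, at -0.23 in female no nicotine and -0.25 in male no nicotine, and list medians of -0.12, -0.051, -0.073 and -0.18. Classical and related cadherins held 0, 2, 0 and 3 called lower and 0, 1, 0 and 1 higher of 21 genes tested in females and 20 in males. Cdh12 fell by 0.77 and 0.71 on the log2 scale without nicotine in females and males. Cdh6 fell by 0.85 in females, Cdh10 by 0.29 and Cdh22 by 0.28 in males, while Cdh24 rose by 0.47 in females and Cdh15 by 0.67 in males.

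Of the 16 regulators of the clustered genes, which include CTCF and cohesin, 0 were called in any comparison with air by edgeR, beside 4.29%, 12.1%, 0% and 13.6% of all genes. At an unadjusted p below 0.05 there were 1, 4, 2 and 4 regulators, beside 28.1%, 36.4%, 14.4% and 36.02% of all genes. Ctcf itself lay at 0.007, 0.010, 0.067 and 0.025. Intracellular partners held 1 of 18 called lower in female nicotine (Cyfip2 of the WAVE complex, at -0.27), 6 lower and 1 higher in female no nicotine, 0 in male nicotine, and 6 lower and 1 higher in male no nicotine, with medians of -0.072, -0.11, -0.045 and -0.057. Cyfip2 fell by 0.38 and 0.37 on the log2 scale in the no-nicotine groups of females and males. Ptk2, the focal adhesion kinase that clustered protocadherins are known to inhibit, fell by 0.37 and 0.29 in the same groups. Nckap1, Wasf1 and Prkca were called lower in both sexes without nicotine, Abi2 in females and Ptk2b in males. Ret was called higher in females at 0.87 and Fyn in males at 0.17.

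The genes outside the family whose CPM ranked the libraries most like Pcdh1 were Mef2d (Spearman rho 0.982) and Kcnj6 (0.968) over the 16 female libraries and Rtn4rl1 (0.961) and Agfg1 (0.958) over the 17 male libraries. For Pcdh7 they were Tmem215 (0.959) and Lsm11 (0.950) in females and Usp13 (0.924) and Synj1 (0.914) in males. For Pcdhgc5, Fam171b and Ppp3cc (both 0.982) led in females and Chrm3 (0.980) and Arhgap32 (0.971) in males. For Pcdhac2 the leading genes were Faxc (0.962) and Gnaq (0.950) in females and Acsl4 (0.980) and Wdr7 (0.978) in males. For Pcdh11x, which moved the other way, they were Rab9b (0.977) and Lhfpl5 (0.968) in females and Tmx1 (0.978) and Ptch1 (0.939) in males. These are the highest of all genes tested in each table and all groups enter them, so they describe likeness across libraries that share the same exposure and marker differences, and the 2 tables gave different genes for each member named.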

How the data were processed

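RNA of frontal cortex was sequenced as single 50-cycle reads from TruSeq libraries, with females and males in separate runs. The authors mapped reads to the mm9 transcriptome with Bowtie, removed duplicates with SAMtools and deposited HTSeq read counts per gene symbol, one table per sex. Duplicate removal can lower the counts of abundant genes, and strand use in counting is not given in the sources used here. Deposited tables of normalized values were not used, and 1 count column that matched no sample label was left out.

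Counts were fitted per sex with edgeR 4.0.16 (TMM, 3 groups in 1 quasi-likelihood fit, R 4.3.3) for genes with CPM summing to 5 or more, with Benjamini-Hochberg adjustment over all genes tested and a threshold of 0.01. DESeq2 1.42.0 and limma 3.58.1 (voom) were alternatives. Values are TMM-normalized CPM, and the SE is the log2 fold change divided by the root of the F statistic. Named were all non-clustered members, the C-type genes, the highest per cluster, and up to 4 clustered calls per comparison. Values in every library were plotted for the 8 members called in more than 1 comparison with air. For their air and male nicotine libraries the text gives ranges and medians. Members and lists were chosen with earlier results of these data known. Replicates are pups of separate litters per the study's methods. Scripts were tested on simulated counts.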

Additional observations from a re-analysis of the deposited data

Results flagged for a closer look

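Of all samples, 1 stood apart from the rest of its group in the 66 groups of 4 to 10 values examined, where chance gives about 1 in 20. The summed normalized CPM of the 22 Pcdhg genes was 649 in female no-nicotine replicate 1, and the other 4 libraries of the group lay between 579.5 and 588. The gap was 0.881 of the range of the group. That library also held the highest Pcdh1 level of its group.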

How the results depend on the processing

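Counts of called members depended on the adjustment for cortical markers, as did those of all genes, and on the tool. With the cortical marker score as a covariate 0 members were called in female nicotine, female no nicotine, male no nicotine and male nicotine against no nicotine (6, 10, 12 and 1 otherwise). Over all genes that fit called 0%, 0%, 0.0850% and 0.0458% in the same order. At an adjusted p below 0.05 the counts were 11 in female nicotine, 17 in female no nicotine, 15 in male no nicotine and 7 in male nicotine against no nicotine. The shares of all genes were 12.5%, 25.0%, 24.7% and 3.56%. DESeq2 called 10 in female nicotine and 6 in male nicotine against no nicotine, beside 8.70% and 2.98% of all genes, and kept 29 of 29 gene calls. With limma-voom 27 of 29 held, without Pcdhac1 in female no nicotine and Pcdha5 in male no nicotine. Upper quartile scaling ended the calls of Pcdha12 and Pcdhgc5 in female nicotine, leaving 4, and of Pcdhac1 in female no nicotine. The stricter filter lost Pcdhgc5 in female nicotine, and no filter lost Pcdhac1 in female no nicotine. A fit of only the groups compared gave 0 in male nicotine against no nicotine and lost Pcdha12 in female nicotine, Pcdhac1 in female no nicotine, and Pcdh11x, Pcdha5 and Pcdha6 in male no nicotine. Leaving out 1 library gave 3 to 8 calls in female nicotine (3 without air replicate 6, nicotine replicate 1 or nicotine replicate 6, and 8 without no-nicotine replicate 2), 5 to 13 in female no nicotine (5 without air replicate 6 or no-nicotine replicate 3, 6 without no-nicotine replicate 2 or 5), 8 to 13 in male no nicotine (8 without air replicate 38) and 0 to 3 in male nicotine against no nicotine (3 without nicotine replicate 19 or no-nicotine replicate 2). Male nicotine, female nicotine against no nicotine and both sex differences held 0 calls in these fits. Over the same fits, 1.499 to 6.167% of all genes were called in female nicotine and 5.463 to 16.62% in female no nicotine. The shares were 9.984 to 14.28% in male no nicotine and 0 to 1.615% in male nicotine against no nicotine.

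The replicate numbers of the female groups did not pair the samples, since deviations of same-numbered samples correlated at a median of 0.0144 over 14 pairs (-0.273 to 0.266, 4 above 0.1). With the replicate number as a block, 3 members were called in female nicotine and 5 in female no nicotine, where 0.897% and 4.86% of all genes were called, and Pcdhgc4 in female nicotine was -0.011. The block ended the calls of Pcdh20, Pcdha12 and Pcdhgc5 in female nicotine. In female no nicotine it ended those of Pcdh11x, Pcdha12, Pcdha5, Pcdhac1 and Pcdhga11. Male groups share too few numbers for a block.

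Direction turned for 61 values in all, of which 24 were under the cortical covariate, and the cause was not tested. Under it, female nicotine gave -0.055 for Pcdh11x, 0.12 for Pcdh12, -0.085 for Pcdh18, 0.11 for Pcdhgc3, -0.39 for Pcdhgc4, 0.054 for Pcdhb17 and -0.035 for Pcdhb20. Female no nicotine gave -0.033 for Pcdh11x, 0.019 for Pcdha12, 0.18 for Pcdh12, -0.20 for Pcdh15, -0.29 for Pcdh19, -0.15 for Pcdh8, 0.11 for Pcdhgc3, -0.35 for Pcdhgc4 and 0.045 for Pcdhb17. Male nicotine gave -0.053 for Pcdh18 and -0.092 for Pcdhgc4. Male no nicotine gave -0.005 for Pcdh11x, -0.057 for Pcdh10, 0.17 for Pcdh12, -0.23 for Pcdh18, -0.061 for Pcdh8 and -0.15 for Pcdhgc4. With limma-voom, Pcdh8 in female nicotine was 0.047, Pcdh19 in male nicotine 0.020 and Pcdh15 in male no nicotine 0.010. Upper quartile scaling gave 0.002 for Pcdh8 and 0.007 for Pcdhgc3 in female nicotine. Leaving out 1 library turned 13 uncalled values of at most 0.108 in size, with ranges of -0.254 to 0.102 for Pcdh12, -0.092 to 0.031 for Pcdh15, -0.183 to 0.007 for Pcdh19 and -0.036 to 0.030 for Pcdh9 in male no nicotine, -0.066 to 0.049 for Pcdh19, -0.12 to 0.019 for Pcdhac1 and -0.042 to 0.008 for Pcdhb20 in male nicotine, -0.004 to 0.079 for Pcdh15 in female no nicotine, and -0.077 to 0.064 for Pcdh8, -0.093 to 0.005 for Pcdhb17, -0.027 to 0.063 for Pcdhb20, -0.064 to 0.028 for Pcdhgc3 and -0.034 to 0.143 for Pcdhgc4 in female nicotine.

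Low counts limit Pcdh12 and most Pcdha genes, and the number of animals limits every comparison.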
